A study of Mus musculus with 2 samples.

Results

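The genes described here encode the proteins of the cytosolic ribosome. They were taken from the gene list of the deposited matrix by symbol: every Rpl or Rps symbol followed by a number, with the stalk genes Rplp0, Rplp1 and Rplp2 and with Rpsa, leaving out 10 S6 kinase genes and 3 pseudogene rows. This gave 85 of 19550 genes, 51 with an Rpl symbol and 34 with an Rps symbol. Single cells came from the esophagus, the gastroesophageal squamo-columnar junction (GE-SCJ, where the squamous lining of the esophagus meets the columnar lining of the stomach) and the stomach of wild type C57BL/6 mice. Embryos at E15 (6 mice) and E19 (2 mice), pups at day 2 (2 mice) and adults at 8 weeks (3 mice) were used, no group carried a transgene or received a treatment, and cells were released with collagenase. Of 12 possible pairs of region and stage, 11 are present. The adult stomach is missing, since the paper reports that none of its cells was assigned a tag, so stomach values end at the pup. Mice of 1 stage and region were combined under 1 oligonucleotide tag before a single droplet library was made, so every class, region and stage group is 1 pooled sample. No comparison between groups can therefore be tested, intervals given here are exact 95% intervals for counting error only, and spread between mice was not measured.

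A ribosome joins a small subunit, which reads the mRNA, to a large subunit, which forms peptide bonds. Each ribosomal protein is needed in about equal number, most are made by a gene of their own, and the mRNAs share a tract of pyrimidines at their first bases (the TOP motif) through which their translation follows nutrient and growth signals. In stratified epithelia, dividing basal cells are known for high ribosome production, which declines as cells leave the basal layer and differentiate.

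The start windows of some genes named in the results below, among them a retrocopy, are shown first. Each runs from 10 bases before to 19 bases after the annotated start base, as RefSeq gives it on GRCm38.p6. Capitals mark a C followed by at least 4 C or T bases that begins within 5 bases of the annotated start, and windows in lower case hold no such tract at that place.
Rps27 (chr3:90213629-90213658, minus strand): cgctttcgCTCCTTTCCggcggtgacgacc
Rps27rt (chr9:114982720-114982749, minus strand): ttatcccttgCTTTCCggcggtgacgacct
Rps27l (chr9:66946076-66946105, plus strand): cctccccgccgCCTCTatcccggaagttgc
Rpl22l1 (chr3:28805498-28805527, plus strand): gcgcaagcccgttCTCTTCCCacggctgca
Rps26 (chr10:128626487-128626516, minus strand): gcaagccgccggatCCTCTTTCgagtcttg
Rpl38 (chr11:114668570-114668599, plus strand): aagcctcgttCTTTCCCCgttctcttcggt
Rplp0 (chr5:115559457-115559486, plus strand): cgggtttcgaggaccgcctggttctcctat
The windows of Rps27 and Rps27rt shared a run of 19 bases, and that of Rps27l was unlike both. RefSeq start windows were at hand for 65 of the 85 genes, and 30 of them (46.2%) had a tract at the start, against 21.2% of 27025 genes of any kind and 23.8% of 11287 genes with at least 100 UMIs in these cells. Motifs were read over 250 bases before to 50 bases after the start, on both strands. The ETS factor motif CCGGAAG lay in 26 of 65 genes (40.0%), against 9.93% of genes of any kind and 18.5% of genes with at least 100 UMIs. The YY1 core AAGATGGC lay in 6 (9.23%), against 3.19% and 4.80% in the same order. The palindromic CGCG element lay in 6 (9.23%), against 0.525% and 1.04%. These matches describe letters only, and they depend on where RefSeq places the start.

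The matrix held 107865155 UMIs (unique molecular identifiers, each standing for 1 captured transcript end) in 7808 cells, with a median of 10424.5 UMIs per cell and a range of 519 to 79817. No barcode occurred more than once. The paper annotated its clusters by known markers in these same data, so marker levels describe the class labels and do not test them. Summed squamous markers stood at 17912 CPM (UMIs of a gene per 1000000 UMIs) in squamous cells and at most 287 CPM elsewhere. The fibroblast, smooth muscle, immune, endothelial and neural lists were each highest under their own label. The label Stromal-2 combined fibroblast markers at 7624 CPM with mesothelial markers at 1583 CPM. Of the adult-tagged cells, 11 of 335 in the esophagus and 24 of 143 in the GE-SCJ had mostly prenatal cells as nearest neighbours, and adult values are given with and without them where they differ. Labels and clusters were drawn by the authors from the same expression values, so differences between them are descriptions.

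Ribosomal protein mRNAs made up 21.4% of the UMIs of the atlas. Of the 85 genes, 77 lay between 1000 and 7000 CPM over all cells and 8 lay below 1000 CPM, with a median of 2372.6 CPM. UMI counts are not divided by gene length, because 1 end is counted per transcript. Rps29 (6198.5 CPM), Rpl41 (5567.2 CPM), Rps12 (4972.3 CPM) and Rpl37a (4716.2 CPM) were among the most abundant. All 85 genes are annotated as protein coding in GENCODE M21, on 19 chromosomes.

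The lowest members were relatives that the symbol rule takes in. Rpl3l, the striated muscle relative of Rpl3, had 7 UMIs in the whole atlas (0.0649 CPM), and Rpl39l, known from spermatogenesis, had 34 UMIs, of which 15 were in immune cells. Neither reached 100 UMIs in any comparison, so 83 genes at most enter the counts below. Rps19bp1, a nucleolar protein that binds Rps19 and is not part of the ribosome, stood at 51.0 CPM. Rpl7l1, a relative of Rpl7 known from precursors of the large subunit, stood at 64.2 CPM against 1609 CPM for Rpl7. Rps27rt, an intronless copy of Rps27, stood at 83.4 CPM, and since the copies share sequence its reads may be split from those of Rps27.

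Summed over regions and stages, the ribosomal protein share of UMIs was 25.7% in squamous epithelium, 22.1% in columnar epithelium, 21.6% in immune cells, 21.5% in endothelium, 20.3% in fibroblast-type stroma, 19.9% in neural cells, 19.5% in Stromal-2 and 18.2% in smooth muscle. These sums mix stages in different parts, and the order of neighbours changed within stages. Endothelium stood above immune cells at E15 (22.7% and 22.5%) and in the pup (17.99% and 17.2%), and Stromal-2 above fibroblast-type stroma (20.9% and 20.7% at E15, 17.9% and 17.0% in the pup). In 54 groups of class, region and stage with at least 20 cells the share ran from 11.1% in adult esophageal smooth muscle to 36.7% in squamous cells of the pup GE-SCJ, with a median of 20.4%. No exact 95% Clopper-Pearson interval of a group reached more than 0.229 percentage points to either side, which is far less than the spread over cells. The balance of the subunits moved little beside this. Small subunit genes gave between 43.8% (adult esophageal smooth muscle) and 48.2% (pup GE-SCJ immune cells) of ribosomal protein UMIs, with a median of 46.0%.

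**Figure D1:**
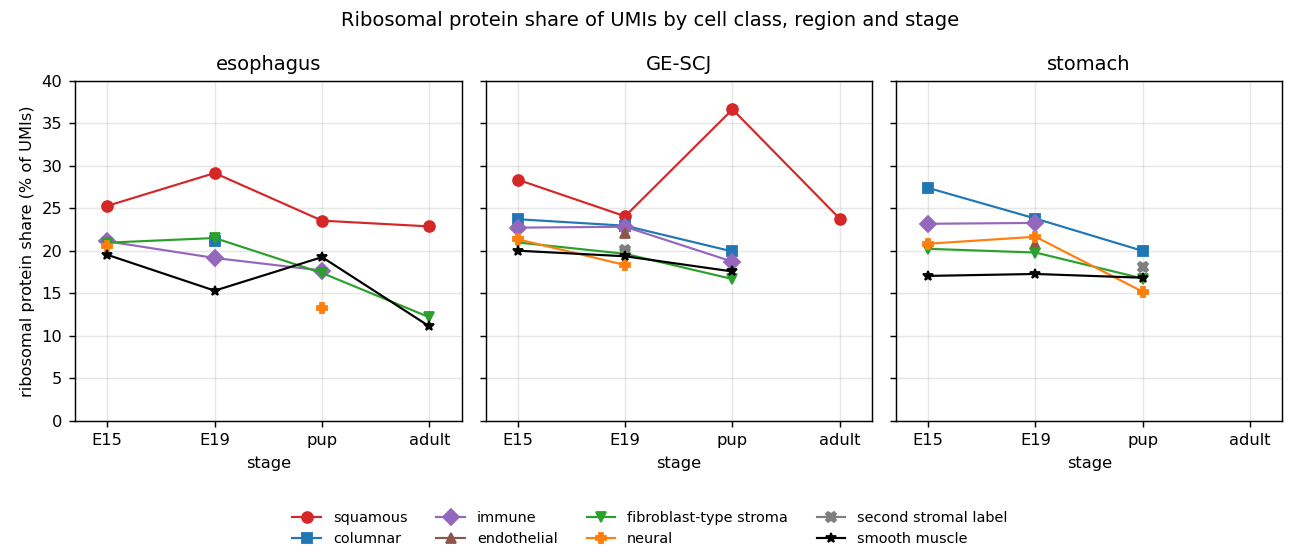
Ribosomal protein share of UMIs (vertical axis, percent) by stage (horizontal axis) in the esophagus, GE-SCJ and stomach, 1 line per cell class and 1 point per pooled group of at least 20 cells, with counting intervals smaller than the points. Squamous cells of the pup GE-SCJ stand highest at 36.7%, and adult esophageal smooth muscle lowest at 11.1%.

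In fibroblast-type stroma the share was lower in the pup than before birth in every region. Esophageal stroma had 21.0% in E15, 21.5% in E19 and 17.4% in pup cells. The GE-SCJ had 21.0%, 19.7% and 16.7% in the same order, and the stomach had 20.2%, 19.8% and 16.7%. The quartiles over esophageal cells were 18.8% to 23.8% at E15 and 14.0% to 20.1% in the pup, so that single cells of both stages overlapped. Esophageal stroma of the adult stood at 12.2% (31 cells, none of them with mostly prenatal neighbours). Pup stroma was shallower, with a median of 3859 UMIs per esophageal cell against 10573 at E15, and after thinning each cell to 5000 UMIs (34 and 322 cells left) the esophageal shares were 17.1% and 21.3%.

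Few stromal members were past 1.5-fold between pup and E15. In the esophagus 4 of 83 genes were at least 1.5-fold lower and 0 higher, where 25.6% of 6361 genes kept (100 UMIs or more over both groups) were lower and 17.5% higher. In the GE-SCJ 7 of 83 were lower and 0 higher (25.5% and 16.5% of genes), and in the stomach 4 of 83 were lower and 0 higher (23.4% and 15.1%). The median log2 ratio over the members was -0.25, -0.34 and -0.28 in the esophagus, GE-SCJ and stomach, against -0.12, -0.13 and -0.14 over the genes kept. Scaled by median of ratios in place of total UMIs, the member medians came to -0.09, -0.15 and -0.10, with 1, 1 and 1 members lower and 0, 0 and 1 higher.

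Within that common shift some members stood apart in the same way in the 3 regions. Rps26, at the channel where mRNA leaves the small subunit, was the lowest in each, at 2623 CPM in the pup against 4673 CPM at E15 in the esophagus (log2 ratio -0.83, 95% interval -0.91 to -0.76), 2421 against 4838 CPM in the GE-SCJ (-0.997) and 2526 against 4697 CPM in the stomach (-0.89). Rpsa, which encodes a small subunit protein also known as the laminin receptor precursor, had log2 ratios of -0.71, -0.63 and -0.63. Rpl41, which encodes the shortest ribosomal protein, stood at 3325 against 5519 CPM in the esophagus (-0.73) with -0.73 in the GE-SCJ and -0.59 in the stomach. Rps27, a zinc finger protein of the small subunit, lay on the other side of the median, at 3499 CPM in the pup against 3220 CPM at E15 in the esophagus (0.12), with 0.13 in the GE-SCJ and 0.09 in the stomach. Rps14 (0.11) and Rpl17 (0.23) were the other esophageal genes farthest above the median.

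Other genes of the ribosome's pathway were read beside the members in these stromal cells. Of 23 ribosome biogenesis genes kept in the esophagus, 13 were at least 1.5-fold lower in the pup and 0 higher (median log2 ratio -0.64), and in the stomach 13 of 24 were lower and 1 higher (median -0.66). In the GE-SCJ 8 of 24 were lower and 1 higher (median -0.45). Npm1, a nucleolar chaperone of assembly, had log2 ratios of -0.66, -1.09 and -1.03 in the esophagus, GE-SCJ and stomach, and Fbl, the methyltransferase of ribosomal RNA, -0.80, -0.46 and -1.13. Mitochondrial ribosomal proteins were lower too. Past the fold were 40 of 68 genes in the esophagus (median -0.69), 25 of 71 in the GE-SCJ (-0.42) and 24 of 71 in the stomach (-0.31). Beside these list counts, 25.6%, 25.5% and 23.4% of the genes kept were lower by that fold, in the same order of regions. Eef2, the elongation factor that moves the ribosome along the mRNA and carries a TOP motif, lay above the members at 0.78, 0.47 and 0.21.

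Stress, division and other cell type genes moved beside these values. Of 11 genes induced by dissociation and stress, 10 were past 1.5-fold higher in the esophageal pup stroma, and their summed level was 16242 CPM against 4565 CPM at E15, none being at 0. In the GE-SCJ the sums were 13550 and 7768 CPM, and in the stomach 12949 and 5607 CPM. The adult esophageal stroma, which had the lowest stromal share, stood at 2996 CPM. Of 8 proliferation genes, 8 were past 1.5-fold lower in the pup in each region. The summed level of 5 columnar markers in stromal cells, none at 0, was 1515 CPM in the pup against 632 CPM at E15 in the esophagus, 1369 against 718 CPM in the GE-SCJ and 2421 against 673 CPM in the stomach. That of 4 red blood cell markers, none at 0, was 1523 against 382 CPM in the esophagus, 3678 against 320 CPM in the GE-SCJ and 426 against 656 CPM in the stomach, where it was thus lower. In stomach stroma 4 of 5 smooth muscle markers (summed 1198 against 801 CPM) and 7 of 13 mitochondrially encoded transcripts were also past 1.5-fold higher in the pup. The part of these differences in the ribosomal protein share was not tested.

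**Figure D2:**
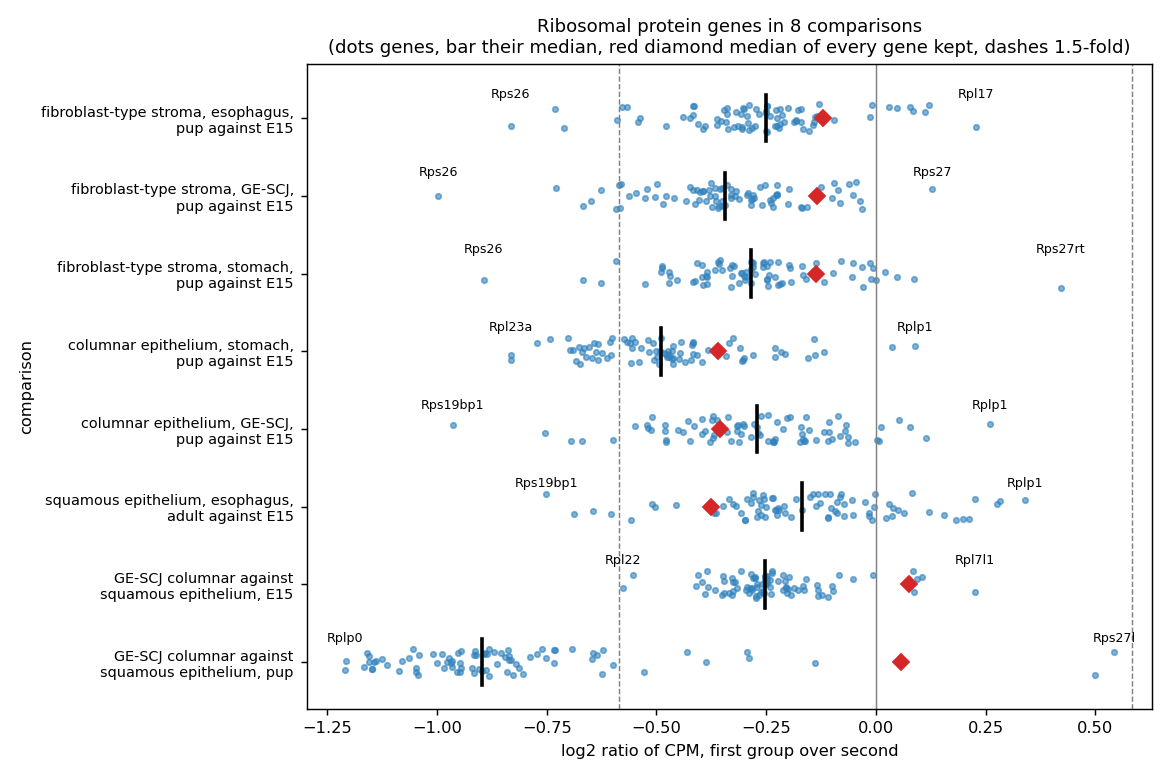
Log2 ratio of CPM (horizontal axis) of each ribosomal protein gene kept in 8 comparisons (rows), with the members' median as a black bar, the median of all genes kept as a red diamond and 1.5-fold as dashed lines, and with the lowest and highest member named. Members sit together left of 0 in most rows, and between pup GE-SCJ columnar and squamous cells their median is -0.90 against 0.06 for all genes kept.

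In columnar epithelium the share was lower at each later stage. In the stomach it was 27.4% in E15, 23.8% in E19 and 19.99% in pup cells, and in the GE-SCJ 23.7%, 23.0% and 19.9%. Over stomach cells the upper pup quartile (25.10%) lay just below the lower E15 quartile (25.13%). Median depth was 24673 UMIs per cell at E15 and 29810 in the pup in the stomach, and 24673 and 22286 in the GE-SCJ. In the stomach 24 of 83 members were at least 1.5-fold lower in the pup and 0 higher, with a median log2 ratio of -0.49, where 38.1% of 9333 genes were lower, 15.1% higher and the median was -0.36. In the GE-SCJ 5 of 83 were lower and 0 higher (median -0.27), where 37.1% of 8002 genes were lower, 14.6% higher and the median was -0.35. With median-of-ratios scaling 0 of the 24 stomach calls were left and the median became -0.14, while the GE-SCJ had 1 member lower, 1 higher and a median of 0.06, so the GE-SCJ direction depends on the scale. With the 50 most abundant other genes left out of the total, the GE-SCJ difference in share shrank from -3.80 to -0.247 percentage points. Of 8 proliferation genes, 8 were past 1.5-fold lower in the pup in both regions (summed 282 against 1175 CPM in the stomach and 282 against 1246 CPM in the GE-SCJ). Smooth muscle markers were lower in 4 of 4 cases in both regions (93.8 against 203 CPM and 117 against 303 CPM). In the GE-SCJ fibroblast markers were lower in 4 of 4 cases (153 against 595 CPM) and red blood cell markers higher in 4 of 4 (1113 against 243 CPM), and none of these markers was at 0. Their part in the result was not tested.

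The columnar cells of the compared stages came from different clusters of the authors. Values by cluster sum the cells of every region, without matching regions between stages. Cluster 2, which held most prenatal columnar cells, had a share of 26.5% at E15 (189 cells) and 23.5% at E19 (600 cells) but 11.9% among its 53 pup cells. Those pup cells had Tff1, a trefoil peptide of gastric surface mucous cells, at 68046 CPM. Most pup cells lay in cluster 5, with Pgc (the digestive zymogen pepsinogen C) at 44559 CPM and a share of 21.3% (448 cells), or in cluster 12, with Atp4a (the acid pump of parietal cells) at 9802 CPM and a share of 18.7% (151 cells). Among pup cells, 75 of 83 members were at least 1.5-fold lower in cluster 2 than in cluster 5 and 0 were higher, where 18.8% of 8917 genes were lower and 16.9% higher. Of 11 stress genes 10 were lower in cluster 2 as well, and of 8 proliferation genes 5, and their part was not tested. Within cluster 2, 80 of 83 members were lower in the pup than at E15 and 0 higher, against 44.6% and 15.3% of 7304 genes. Its ribosome biogenesis genes were lower in 25 of 28 cases, with a median log2 ratio of -1.84 against -1.20 for the members.

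Members of the stalk and the 5S particle differed among themselves in columnar cells. Rplp1, an acidic protein of the stalk that recruits elongation factors, was the member highest above the median in both regions, at 5084 CPM in the pup against 4778 CPM at E15 in the stomach (log2 ratio 0.09, 95% interval 0.07 to 0.11) and 5074 against 4233 CPM in the GE-SCJ (0.26). Its stalk partners did not share that place, since Rplp2 had -0.63 and -0.38 and Rplp0, the anchor of the stalk, -0.30 and -0.09. Rpl5 and Rpl11, which carry the 5S RNA into the large subunit and can bind the p53 regulator Mdm2, had -0.77 and -0.64 in the stomach and -0.60 and -0.48 in the GE-SCJ. Rpl23a (2527 CPM at E15, 1419 CPM in the pup) and Rps23 (4079 and 2293 CPM), of the decoding centre, were the lowest stomach members at -0.83 each. Rps27a, translated as a fusion with ubiquitin, had -0.56 in the stomach. Rpl38, known for its role in axial skeleton patterning, had -0.15 in the stomach and 0.08 in the GE-SCJ.

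Assembly genes of columnar cells were lower by more than the members. In the stomach 25 of 30 ribosome biogenesis genes were at least 1.5-fold lower in the pup and 0 higher (median log2 ratio -1.09). In the GE-SCJ 20 of 26 were lower and 0 higher (median -1.14). Of the genes kept, 38.1% were lower by that fold in the stomach and 37.1% in the GE-SCJ. Ncl, the nucleolar protein nucleolin, had -1.42 in the stomach and -1.48 in the GE-SCJ, Npm1 -1.68 and -1.36, and Fbl -1.58 and -1.23. Mycn, a transcription factor that drives ribosome production, had -4.18 and -3.55. Mitochondrial ribosomal proteins were past the fold in 9 of 78 genes lower and 1 higher in the stomach (median -0.23), unlike the stromal counts. The mitochondrially encoded transcripts went the other way, with 8 of 13 at least 1.5-fold higher in the stomach pup cells.

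Squamous epithelium, with both deposited squamous labels joined, showed no single course. Esophageal cells had a share of 25.3% (E15), 29.2% (E19), 23.6% (pup) and 22.9% (adult, the same without the 1 cell of prenatal neighbours). In the GE-SCJ it was 28.4%, 24.1%, 36.7% and 23.8%, the last being 24.2% without the 3 adult cells of prenatal neighbours. Under the first of these labels alone the pup was highest in both regions, at 38.0% in the esophagus and 37.4% in the GE-SCJ. There E19 lay above E15 in the esophagus (29.9%) and below it in the GE-SCJ (26.7%). Between adult and E15 esophagus 4 of 83 members were at least 1.5-fold lower and 0 higher, where 37.6% of 5293 genes were lower and 16.5% higher. Among the 4 were Rps19bp1 (-0.75), which is not part of the ribosome, and the relatives Rps27rt (-0.69) and Rpl7l1 (-0.64). The member median log2 ratio of -0.17 lay above the -0.38 of the genes kept, and with median-of-ratios scaling it became 0.20, with 4 members higher and 0 lower, so the calls turned round. Once cells were thinned to 5000 UMIs (171 adult and 58 E15 cells left) the difference in share turned from -2.42 to 0.804 percentage points, so no direction can be given for it.

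The low pup value in the esophagus came from a second squamous label of 40 cells, 29 of them in the pup esophagus. These 29 cells had a ribosomal protein share of 3.00% (95% interval 2.94 to 3.05), with a median cell at 2.86%, while the 56 pup cells of the first squamous label had 38.0% and a median cell at 39.9%. Both had usual depth, with median counts of 11550 and 8503.5 UMIs per cell. Every one of the 81 members kept was at least 1.5-fold lower under the second label, with a median log2 ratio of -3.70, where 53.3% of 1046 genes were lower and 31.2% higher and the median was -0.82. Rpl12 stood at 154 against 4932 CPM and Rpl3, at the peptidyl transferase centre, at 74.7 against 2384 CPM. Rpl36al (376 against 983 CPM, log2 ratio -1.38) and Rpl22l1 (229 against 934 CPM, -2.01) were closest to the first label. Small subunit genes gave 39.8% of the remaining ribosomal protein UMIs. Over the 31 pup cells of this label Krt13, a keratin of suprabasal cells, was at 6916 CPM and Krt7 at 5546 CPM, while the basal marker Krt5 was at 12.02 CPM and Trp63 and Mki67 had 0 UMIs of 416139. Of 11 dissociation and stress genes 10 were also lower under this label, and their part in the result was not tested.

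**Figure D3:**
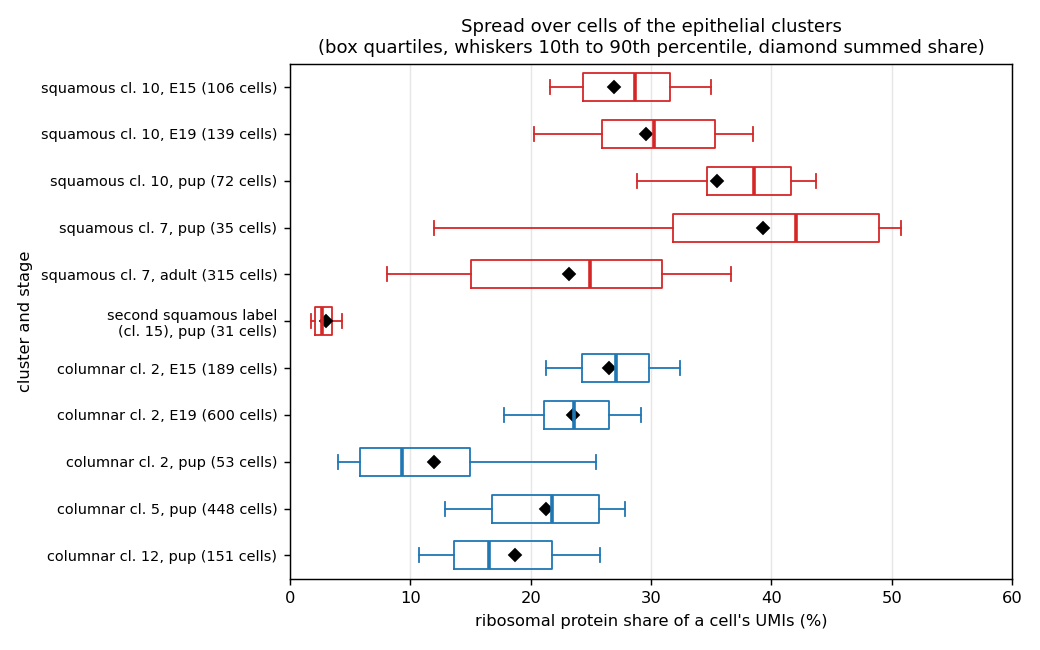
Ribosomal protein share of each cell's UMIs (horizontal axis, percent) in the epithelial clusters (cl.) of the authors by stage, with all regions joined. Boxes show quartiles, whiskers run from the 10th to the 90th percentile of cells and a diamond marks the summed share. The second squamous label lies near 3% with little spread, and columnar cluster 2 stands at 11.9% in the pup against 26.5% at E15.

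The share was then read along squamous differentiation, in 3 equal sets of cells ordered by the part of Krt13 in the UMIs of Krt13, Krt5, Krt14 and Krt15 (cells with at least 10 such UMIs, adult cells of prenatal neighbours left out). In the adult esophagus it was 29.0% in the set with the least Krt13, 29.8% in the middle set and 17.7% in the set with the most, and in the adult GE-SCJ 30.3%, 27.1% and 20.3%. In the pup GE-SCJ it was 44.7%, 39.8% and 29.6% (14, 14 and 13 cells). There the lowest set held only cells at 0% Krt13 and the middle set ran from 0% to 12.8%. Cells tied at 0% were thus divided by their order in the data, and the step between these sets is not read as a decline along Krt13. Of the 41 cells, 24 lay within 5 points of a border. The pup esophagus gave 38.6%, 36.8% and 2.96%, and 27 of 27 cells of its last set bore the second squamous label. At E15 the summed shares of the esophageal sets were alike, at 25.6%, 25.5% and 25.5%. Their median cells were not, at 28.1%, 27.4% and 25.1% in the same order. Their Krt13 parts were 0% to 1.80%, 1.89% to 4.17% and 4.20% to 98.7%, and 49 of 62 cells lay within 5 points of a border. These sets hardly separate the cells by Krt13, so neither the summed shares nor the median cells are read along differentiation. The set with the most Krt13 was lowest in the other prenatal groups too. The sets gave 29.3%, 29.99% and 26.9% in the E15 GE-SCJ and 29.8%, 31.4% and 27.0% in the E19 esophagus. In the E19 GE-SCJ (32 cells) they gave 28.7%, 24.3% and 18.4%. The median cells there stood at 29.0%, 31.7% and 17.5%, so by median cell the middle set lay above the lowest. Cells of the second squamous label were 3 of 40 in the highest E19 esophageal set. In the E19 GE-SCJ they were 3 of 10 in the highest and 1 of 11 in the middle set. Their part in these E19 values was not tested. Mki67, a marker of dividing cells, stood at 332 CPM in the lowest and 2.31 CPM in the highest adult esophageal set. The highest adult set was also deeper, with a median of 18356 UMIs per cell against 7445 in the lowest, and the part of depth was not tested. Of the 222 adult esophageal cells used, 62 lay within 5 points of a border between sets, so the sets are ranges and not cell types.

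**Figure D4:**
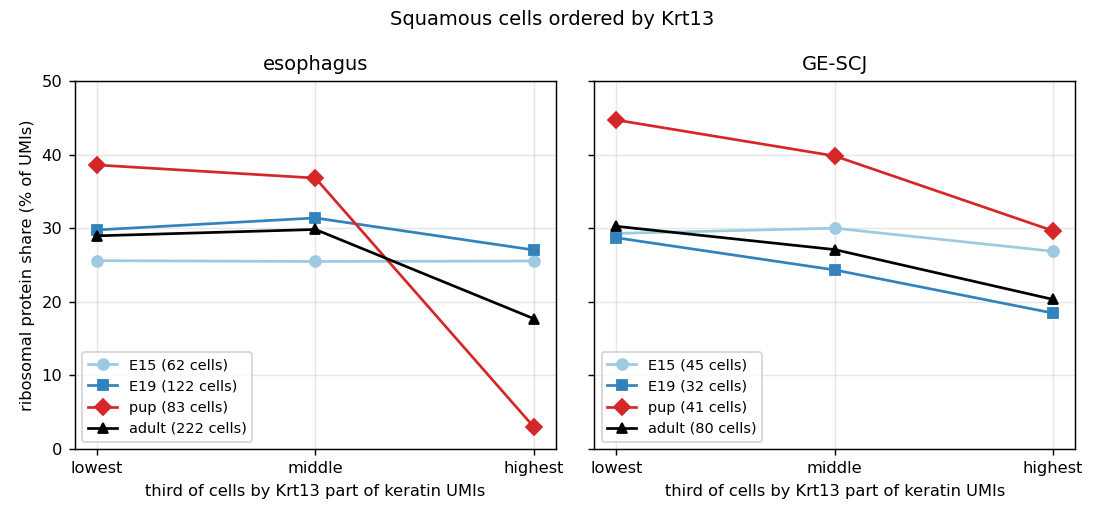
Ribosomal protein share of UMIs (vertical axis, percent) in 3 equal sets of squamous cells ordered from least to most Krt13 (horizontal axis), 1 line per stage, in the esophagus and the GE-SCJ. The set with the most Krt13 is lowest in the pup and adult of both regions (2.96% in the pup esophagus). The summed share of the E15 esophagus is level near 25.5%, while its median cells stand at 28.1%, 27.4% and 25.1%. In the E15 esophagus 49 of 62 cells lie within 5 points of a border between sets. In the pup GE-SCJ, cells at 0% Krt13 fall in both the lowest and the middle set.

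At the GE-SCJ, where both linings meet, columnar cells had a lower share than squamous cells of the same tag at each stage with at least 20 cells of both, which leaves out the adult. At E15 the shares were 23.7% and 28.4%, with 0 of 83 members past 1.5-fold in either direction, where 15.2% of 3548 genes were higher and 7.84% lower in columnar cells. In the pup the shares were 19.9% and 36.7%, and 75 of 83 members were at least 1.5-fold lower in columnar cells and 0 higher, where 18.5% of 7583 genes were lower and 26.9% higher. The member median log2 ratio was -0.25 at E15 and -0.90 in the pup, and with median-of-ratios scaling -0.33 and -1.02. At a cut of 2-fold 22 members remained lower in the pup. The share of all genes past that cut is not given, so this count has no background beside it. TOP mRNAs other than the members followed, with 11 of 15 lower in the pup (median -0.78). Of 78 mitochondrial ribosomal proteins 16 were higher and 2 lower (median 0.30). Proliferation genes were lower in 5 of 6 cases and red blood cell markers higher in 4 of 4 in columnar cells, and their part was not tested.

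The pup contrast was not even over the members. Rplp0 (2281 CPM in columnar, 5275 CPM in squamous cells), Rps3a1 (2328 and 5379 CPM) and Rpl12 (2301 and 5166 CPM) had the lowest log2 ratios, -1.21, -1.21 and -1.17. Against this, Rps27l, a relative of Rps27 that is a known target of p53, stood at 598 CPM in columnar and 409 CPM in squamous cells (0.54, 95% interval 0.37 to 0.72), and Rpl7l1 at 50.5 and 34.3 CPM (0.50, -0.09 to 1.16, an interval that holds 0). Rpl36al, the autosomal relative of the X-linked Rpl36a, differed little (-0.14), whereas Rpl36a itself had -0.92. At E15 the lowest ratios were those of Rpl22 (-0.58), Rps2 (-0.55) and Rplp0 (-0.41), while Rpl10 (0.09) lay above 0. That of Rpl7l1 was 0.23 (95% interval -0.22 to 0.69, which holds 0).

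Squamous cells of the GE-SCJ had 7 of 81 members at least 1.5-fold higher in the pup than at E15 and 0 lower (median 0.37), where 8.65% of 2173 genes were higher and 31.6% lower. The count of members past the fold on the higher side was thus near the share over all genes. Rplp0 (0.71), Rps27rt (0.71, 95% interval 0.31 to 1.10) and Rpl37a (0.69) had the highest log2 ratios. Of the 81 kept, Rps27l was the one with a ratio below 0, at 409 CPM in the pup against 592 CPM at E15 (-0.53, 95% interval -0.74 to -0.32). Its esophageal values were 521 CPM (E15), 491 CPM (E19), 211 CPM (pup, 317 CPM under the first squamous label alone) and 422 CPM (adult). In both regions the pup was thus the stage with the lowest Rps27l in squamous cells, while the members' summed share was highest there under the first squamous label.

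To see how members vary relative to each other, each was expressed as its part of all ribosomal protein UMIs of a group. Over the 54 groups the log2 range of that part had a median of 0.65 across 80 members with at least 20 UMIs in every group, was smallest for Rpl26 (0.31) and exceeded 1 for 7 members. Rps27l ranged widest, by 2.30, from 0.0895% in squamous cells of the pup esophagus (205 UMIs) to 0.441% in adult esophageal smooth muscle (84 UMIs). Rpl22l1 followed with 1.60, Rps29 with 1.39, Rpl30 with 1.35, Rps26 with 1.12, Rpl36al with 1.07 and Rpl5 with 1.01. Rplp0 came next with 0.97.

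Between immune cells and the other classes some of these parts did not overlap. Rps29, a zinc-binding protein of the small subunit, gave 3.90% to 5.91% of ribosomal protein UMIs in the 8 immune groups and 2.25% to 3.39% in the 46 other groups. Rpl7, of the large subunit, gave 0.545% to 0.677% against 0.709% to 1.05%. In all, 2 of 80 members lay above every other group in the 8 immune groups, Rps29 among them, and 2 below (Rpl7 and Rpl36a). Of 331 genes so abundant in every group, 6 (1.81%) lay above and 2 (0.604%) below on the same scale. The 331 genes include the 80 members, and the 2 below are Rpl7 and Rpl36a themselves. With so few genes, these counts are not read as a trait of the members as a set. Rpl36a was named after its values were seen. As CPM, 0 of 80 members were apart from all other groups (1.21% of the 331 genes above and 0% below), so the separation holds on the scale of proportion alone. Rpl22l1 was low in immune cells too, at 0.209% to 0.300%, with 44 of the 46 other groups above that range. In the pup GE-SCJ, where Rps29 was highest, it stood at 11064 CPM, and the quartiles over its 30 cells were 4.95% and 6.77%.

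In columnar cells Rpl18, named after its values were seen, gave 0.990% to 1.07% in the 7 groups against 0.661% to 0.964% in the 47 others. It was the 1 of 80 members above without overlap, where 2 of the 331 genes (0.604%) were, Rpl18 itself being 1 of these. As CPM 0 of 80 members were so apart (0.604% of genes). Other members leaned to a class with overlap. Rpl36al gave 0.464% to 0.653% of ribosomal protein UMIs in columnar groups, with 37 of 47 other groups below that range. Rplp0 gave 1.13% to 1.49% in the 8 squamous groups, and 33 of 46 other groups lay below. Rpl30 gave 1.19% to 2.58% of ribosomal protein UMIs in the 7 neural groups, with a median of 1.28%, against 1.02% to 1.52% in the groups of other classes. The 2.58% was that of pup neural cells of the esophagus. That group held 24 cells with quartiles of 1.97% and 3.39%, and without the cell with the most Rpl30 UMIs the value was 2.54%. Rps27l gave 0.220% to 0.441% in smooth muscle, with 32 of 44 other groups below, and columnar groups lay within that range at 0.233% to 0.329%. The 0.441% rests on 84 UMIs and was 0.402% without the cell with the most Rps27l UMIs. In squamous cells Rps27l gave 0.0895% to 0.211%, with 27 of 46 other groups above.

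**Figure D5:**
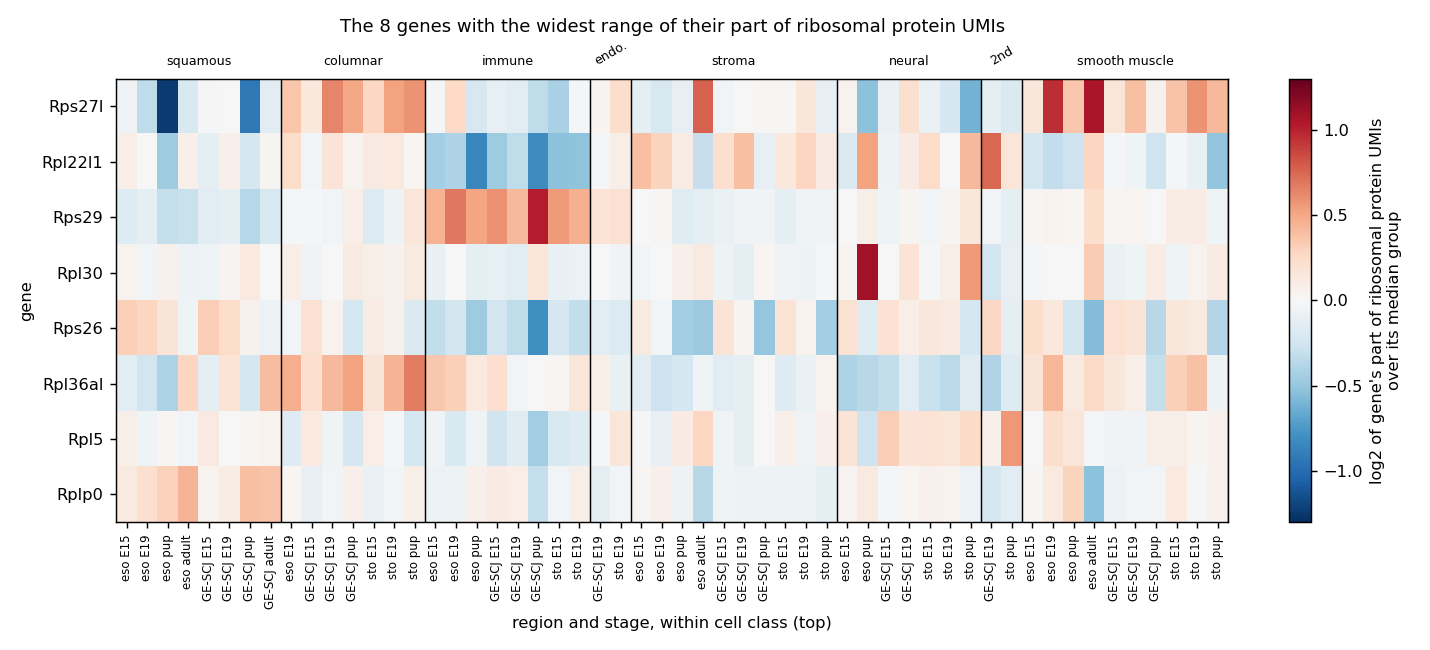
The 8 members with the widest range (rows) in 54 groups of at least 20 cells (columns, by class, region and stage), colored by log2 of the gene's part of ribosomal protein UMIs over its median group. Rps29 is red in each of the 8 immune groups, and Rps27l is darkest blue in squamous cells of the pup esophagus (0.0895%).

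The relatives were set against their main copies, as UMIs of the relative in percent of UMIs of the main copy. Rps27rt stayed at 2.54% to 3.05% of Rps27 in the 8 classes, whereas Rps27l ran from 11.3% in Stromal-2 and 11.4% in squamous cells to 18.3% in smooth muscle and 21.5% in columnar cells. Over the 54 groups Rps27rt ran more widely, from 1.21% (3 UMIs) to 4.76% (15 UMIs) of Rps27. Reads moved from Rps27 to its copy cannot be told apart from the copy's own. Rpl22l1, which the product of Rpl22 is known to repress, stood at 36.1% of Rpl22 in immune cells, 47.0% in squamous cells, 59.8% in columnar cells, 64.3% in fibroblast-type stroma and 96.9% in Stromal-2. Over groups it reached 114% of Rpl22 in Stromal-2 cells of the E19 GE-SCJ (651 UMIs), the 1 group of 54 where it exceeded its main copy. Rpl36al ran from 47.0% of Rpl36a in Stromal-2 to 90.2% in columnar cells, with immune cells close at 86.9%. Over groups it reached 104% in columnar cells of the pup stomach and 102% in immune cells of the E15 esophagus (323 UMIs). Rpl7l1 stayed between 2.71% (squamous) and 5.05% (immune) of Rpl7.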

How the data were processed

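Cells of esophagus, GE-SCJ and stomach were tagged by region and stage and sequenced as 1 gene expression and 1 tag library. The authors made the deposited UMI counts with Cell Ranger 6.1.1 on mm10 and removed barcodes with few or many genes, many UMIs or a high mitochondrial share. The upper limits were set against doublets, and no caller was run here. The deposited cell table gives the mitochondrial percent of each cell (used for 1 alternative filter, highest 19.7%), the tag, phase and class label (other columns), which the authors made in Seurat. Free RNA was not removed.

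Counts were summed per class, region and stage (at least 20 cells), and both squamous labels were joined. Shares carry exact Clopper-Pearson intervals and CPM exact Poisson intervals. A log2 ratio adds 1 UMI to each sum and its interval is conditional on the sum of both counts; genes with at least 100 UMIs over both groups were kept, and 1.5-fold was the cut. With 1 pooled sample per group no test was possible. Genes named are the 3 highest and 3 lowest members per comparison, the 10 of widest range, the 5 highest and lowest by CPM, the relatives with their main copies, the stalk and 5S members and chosen genes of the other lists. A few genes that the rule names are not reported here. Members and lists were chosen with earlier results of these data known. Keratin sets, cluster comparisons, comparisons of groups by class, the depth window and the separate squamous labels were added after seeing the data. Prenatal neighbours were found from 15 nearest cells in 30 components of 2000 variable genes without the members. Tools were matplotlib 3.10.9, scikit-learn 1.9.0, scipy 1.17.1, numpy 2.4.6 and pandas 2.3.3 under Python 3.11.15, and the ratio procedure was tested on simulated data with seed 1. Gene annotation came from GENCODE M21 and start windows from RefSeq, both on GRCm38, the build of mm10. Interval and precision statements cover counting error only.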

Additional observations from a re-analysis of the deposited data

Results flagged for a closer look

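At the GE-SCJ the ribosomal protein share of squamous cells was 8.28 percentage points higher in the pup than at E15, while that of columnar cells was -3.80 percentage points (pup minus E15), that is lower. On this scale the epithelia of the region moved in opposite directions between the same pair of tags, but the columnar direction depends on the scale: the difference was -0.247 percentage points without the 50 most abundant other genes, and the members' median log2 ratio was 0.06 with median-of-ratios scaling. Each value rests on 1 pooled sample per stage, and the difference between them was not tested. Values of 37.4% for the first squamous label of the pup and 36.7% for both labels show the same direction.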

How the results depend on the processing

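Of the 8 differences in share (in percentage points), adult against E15 esophageal squamous cells (-2.42) changed sign, to 0.804 after thinning to 5000 UMIs and 0.323 in cells of 3000 to 10000 UMIs, and the cause was not tested. The other 7 kept their direction under every alternative run on shares. Median-of-ratios scaling does not apply to a share and was run on the ratios only. With it the columnar GE-SCJ member median was 0.06, so that direction depends on the scale. Values that moved beyond their counting interval follow by setting. As the mean of each cell's own share: stroma -3.81 (esophagus) and -3.11 (stomach), columnar -7.79 (stomach) and -4.85 (GE-SCJ), squamous esophagus -2.61, and GE-SCJ columnar against squamous -5.56 (E15) and -17.6 (pup). In cells with 10% mitochondrial UMIs or less and 1000 UMIs or more: stomach stroma -2.92 with 2 members past the fold (4 as reported), columnar stomach -6.69 with 14 (24) and GE-SCJ -3.29, squamous -1.93, and GE-SCJ contrasts -4.94 with 1 (0) and -16.5. Without mitochondrial and hemoglobin genes: columnar -6.99 (stomach) and -3.29 (GE-SCJ). Without the 50 most abundant other genes: stroma -4.08 (GE-SCJ) and -3.10 (stomach), columnar -4.31 and -0.247, squamous -1.90 and pup contrast -14.6. With a redrawn member list, leaving out relatives and adding ribosomal proteins of other symbols: 3 columnar GE-SCJ members (5) and 1 squamous member (4), and pup contrast -17.0. After thinning: stroma -4.19, -4.92 with 11 members (7) and -4.40, columnar -7.82 and -4.49 with 8 (5), squamous 2 members (4), GE-SCJ contrasts -5.44 with 2 (0) and -20.1. In cells of 3000 to 10000 UMIs, chosen after seeing the data: stroma -4.66, -5.56 with 12 (7) and -3.89 with 1 (4), columnar -6.26 with 42 (24) and -11.3 with 57 (5), GE-SCJ contrasts -9.11 with 17 (0) and -27.5, where the columnar GE-SCJ E15 group holds 3 cells and the squamous one 6, so these values carry little. As the mean of each cell's CPM: 2 stomach stroma (4), 9 columnar GE-SCJ (5) and 1 E15 contrast member (0). With median-of-ratios scaling: stroma 1, 1 and 2 (4, 7 and 4), columnar 0 and 2 (24 and 5), E15 contrast 2 (0), and the squamous 4 lower became 4 higher. At 2-fold, with no share of all genes given at that cut: 0 in the 3 stroma, 2 columnar and 1 squamous comparisons and 22 (75) in the pup contrast. Without the second squamous label, chosen after seeing the data, the pup contrast was -17.5. Leaving out adult cells of prenatal neighbours, or keeping genes with 1 UMI, moved no value beyond its counting interval and no count by over 1.5 times. No paired analysis was possible because each group is 1 pooled sample and no result comes from a test; for the same reason no replicate could be left out. Depth limits members under 100 CPM most, such as Rpl7l1 and Rps27rt.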

Other observations

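Shares by the deposited cell cycle phase calls differed between classes. In fibroblast-type stroma at E15 the ribosomal protein share was 21.3% in G1, 21.5% in S and 18.5% in G2M cells, and at E19 it was 21.2%, 20.6% and 16.9%. In smooth muscle at E15 it was 19.7%, 19.4% and 16.4%, so that G2M cells were lowest in these 3 sets. In columnar cells of the pup G1 cells were lowest, with 19.003% in 553 G1 cells, 24.7% in 34 S cells and 24.2% in 65 G2M cells. Phase calls were made from the same counts and depth differed, with a median of 8809 UMIs in G1 and 13345 in G2M stromal cells at E15.

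Genes that host small nucleolar RNAs in their introns, many with a TOP motif, were read as a further list. Between pup cells of columnar cluster 2 and cluster 5, 10 of 10 were at least 1.5-fold lower (median log2 ratio -1.15), beside 18.8% of 8917 genes. Between adult and pup esophageal stroma 5 of 5 kept were lower (median -1.38), beside 23.7% of 1268 genes, and 32 of 80 ribosomal protein genes were lower with 0 higher (median -0.54, 18.5% of genes higher). In that stromal comparison Rps15a (1597 against 3145 CPM) and Rps18 (1114 against 2148 CPM) were lowest. The log2 ratios of Rplp1 (3683 against 3558 CPM) and Rps27l (439 against 342 CPM) were above 0, at 0.05 and 0.37. Their counting intervals (-0.08 to 0.18 and -0.03 to 0.76) both hold 0, so no direction is given for either gene. The adult group held 31 cells, and 10 of 10 stress genes kept were lower in it too; their part was not tested.

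The 3 pseudogene rows left out by the symbol rule stood at 38.6 CPM (Rpl10-ps3), 24.5 CPM (Rpl36a-ps1) and 44.4 CPM (Rpl9-ps6).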
